A study of Mus musculus with 6 samples.

Results

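The genes described here are 34 genes of the unfolded protein response and the integrated stress response, chosen by name as endoplasmic reticulum (ER) chaperones, ER stress sensors and their targets, and ATF4-linked amino acid genes. Their messenger RNA was compared between mouse cDNT, double negative T cells converted from CD4+ T cells, kept with IL-10 (W/ IL-10) and without it (W/O IL-10). All 34 were among the 29393 genes of the count table, and all 34 were among the 14916 genes tested, so that no member was lost to the filter on low counts. The rule lists the genes by name and sets no threshold on a measured value. The members were split by function into 7 branches, with earlier results of these data known, and the branches are described in turn.

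Both groups were cDNT of adult C57BL/6 mice without a transgene or deletion. According to the methods of the study, CD4+CD25- T cells came from the spleen and lymph nodes of congenic, CD45.1-positive C57BL/6 mice. They were converted in coculture with IL-2 and mature dendritic cells and sorted as double negative cells, so that both groups share this conversion. The W/ IL-10 cells received IL-10 at 50 ng/ml for 24 h and the W/O IL-10 cells did not. The methods also name anti-CD3/CD28 antibodies, whereas the labels do not mention them and call the W/O IL-10 cells unstimulated. The sources also differ on the library kit, and on duplicates against the 3 libraries listed for each group. Nothing states that the 3 libraries came from separate mice or cultures, and p-values then measure only the spread between these libraries, which may be technical.

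The ER folds proteins that are secreted or placed in membranes, with chaperones of the HSP70 and HSP90 families, the sugar-binding lectins calnexin and calreticulin, and enzymes that form disulfide bonds. When unfolded protein builds up, the sensors IRE1, PERK and ATF6 raise the production of chaperones and of the machinery that degrades misfolded protein, and PERK slows translation through phosphorylation of eIF2α. Phosphorylated eIF2α, to which other kinases that sense amino acid loss or viral RNA also lead, favours translation of the transcription factor ATF4, and this shared route is called the integrated stress response. In T cells these pathways are known to be engaged by activation, by cytokine secretion and by shortage of nutrients. Much of this control acts on splicing, cleavage, phosphorylation and translation, which counts per gene do not measure.

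The promoters of some of the members carry sequences through which these pathways are known to act, and those are shown here. The ER stress response element (ERSE, CCAAT and CCACG with any 9 bases between them), the second such element (ERSE-II, ATTGG and CCACG with any 1 base between them), the core of the unfolded protein response element (TGACGTGG), the C/EBP-ATF response element that ATF4 binds (CARE, TGATGNAA) and the cyclic AMP response element (CRE, TGACGTCA) were searched on both strands of the window from 250 bases before to 50 bases after the transcription start in RefSeq (GRCm38.p6). The core TGACGTGG begins with CCACG when read on the other strand and can therefore overlap that end of an ERSE. A window was found for 31 of the 34 members, all except Atf6, Hyou1 and Manf. An ERSE stood in 8 of the 31 windows (25.8%), against 35 of the windows of 27025 genes (0.13%). The 8 genes were Hspa5, Hsp90b1, Dnajc3, Calr, Canx, Pdia6, Creld2 and Syvn1. An ERSE-II stood in the windows of Herpud1 and Dnajb11, 6.45% of members against 0.037% of all genes. A CARE stood in 5 windows, those of Atf3, Trib3, Chac1, Asns and Herpud1 (16.1% of members against 4.06% of all genes). A CRE stood in that of Ppp1r15a (3.23% against 1.88%), and the core TGACGTGG in none of the members, against 0.607% of all genes. A match is a description of letters and not a measured binding site.

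Printed below are an ERSE of 4 chaperone and lectin genes, the ERSE-II of Herpud1 and the CARE of 3 genes of the ATF4 branches. Each has 5 flanking bases on each side, 5′ to 3′ on the strand on which the motif reads forward. Hsp90b1 has a further ERSE, 212 bases before the start on the - strand, that is not printed. Capitals mark the letters that the motif fixes.
Hspa5 ERSE (chr2:34772020-34772048, + strand): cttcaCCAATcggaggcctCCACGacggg
Hsp90b1 ERSE (chr10:86705528-86705556, + strand): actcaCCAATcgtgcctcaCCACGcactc
Dnajc3 ERSE (chr14:118937822-118937850, + strand): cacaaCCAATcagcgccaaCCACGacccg
Canx ERSE (chr11:50325795-50325823, - strand): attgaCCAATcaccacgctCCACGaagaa
Herpud1 ERSE-II (chr8:94386372-94386392, + strand): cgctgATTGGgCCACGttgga
Atf3 CARE (chr1:191183431-191183448, + strand): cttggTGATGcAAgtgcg
Chac1 CARE (chr2:119351044-119351061, - strand): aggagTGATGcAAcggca
Asns CARE (chr6:7693220-7693237, - strand): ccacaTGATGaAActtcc

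The libraries held 22953260 to 23967088 counts in the W/O IL-10 group and 21619420 to 22958891 in the W/ IL-10 group. Levels are given as CPM, counts scaled to a common library total, on which scale the detection floor of 3 counts stood at 0.122 to 0.146 (for counting error only). Socs3 and Bcl3, which IL-10 signaling through STAT3 induces, rose by 1.82 and 1.69 on the log2 scale (adjusted p = 0.00102 and 0.000202, edgeR). Of the 5 genes listed for the IL-10 response, Il10ra also passed the test and fell (-0.95, adjusted p = 0.00122, edgeR). Stat3 stood above 0 (0.38) and Il4ra below (-0.21), and neither passed (adjusted p = 0.072 and 0.286, edgeR). The 11 T cell markers summed to 3346 to 3848 CPM W/O IL-10 and 4268 to 4404 CPM W/ IL-10, of which Cd5 alone passed the test and fell (-0.47, adjusted p = 0.0467, edgeR), and Cd4 lay between 0.35 and 1.55 CPM. Cd8a and Cd8b1 transcripts were present in all 6 libraries of these cells labelled double negative, at 95.7 to 168 and 32.5 to 66.6 CPM, and both rose (log2 fold change 0.56 and 0.67, adjusted p = 0.0369 and 0.0306). Of other cell types, the 6 B cell markers summed to 62.9 to 155 CPM W/O IL-10 and 60.4 to 106 CPM W/ IL-10, the 8 plasma cell markers to 335 to 451 and 294 to 366 CPM, the 9 dendritic cell markers, 2 of them at 3 counts or fewer in every library, to 191 to 340 and 175 to 271 CPM, and the 8 macrophage and monocyte markers to 27.6 to 35.7 and 33.4 to 36.8 CPM. No B cell, plasma cell or macrophage marker passed the test. Of the dendritic cell markers, Itgax rose (1.09, adjusted p = 0.00383, edgeR) and was alone in passing. Xcr1 also stood above 0 (0.60), whereas Zbtb46, H2-Aa, H2-Ab1 and Cd74 stood below (-0.44, -0.54, -0.58 and -0.59). Jchain, which defines plasma cells, whose ER is large, lay between 0.922 and 4.05 CPM. Sdc1, Mzb1 and Derl3 of the same list were also low, at 0.744 to 6.57 CPM, and Igkc reached 35.8 CPM. The sum of that list came mostly from Ighm (109 to 233 CPM), Irf4 (80.8 to 107.5 CPM) and Prdm1 (52.3 to 68.7 CPM). Whether plasma cells or other cells made those transcripts was not tested. The part of B cells, plasma cells, dendritic cells and macrophages in the values below was not tested. In bulk RNA, fewer cells of a type and less RNA per cell cannot be told apart.

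None of the 34 members passed an adjusted p of 0.05 between the groups (quasi-likelihood test of edgeR), where 2.19% of all tested genes did. At an unadjusted p under 0.05 stood 8 members, 23.5% (Pdia3, Atf6, Xbp1, Edem1, Atf3, Trib3, Sesn2 and Mthfd2), against 14.7% of all tested genes. DESeq2 called Atf6 and Atf3 on the same counts, and limma-voom called no member. The median log2 fold change of the members was 0.04, with 21 above 0 and 13 below, and that of all tested genes was 0.0063. Leaving out W/ IL-10 replicate 2 turned the members' median to -0.02, and leaving out W/O IL-10 replicate 3 to -0.0022.

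The differences were also small in size. The 95% interval of the fold change lay within 1.5-fold in either direction for 33 of the 34 members (97.1%), the exception being Atf3, whereas it did so for 56.8% of all tested genes. The members are mostly abundant transcripts, and their intervals extended a median of 0.19 on the log2 scale to each side, against 0.31 over all tested genes. Simulated counts had the same depth, a dispersion of 0.0155 for every gene, and changed genes drawn from all tested genes. In them, 47% of genes changed 1.5-fold and 87.5% of genes changed 2-fold were recovered. The shares for genes as abundant as the members were not computed. Failure to pass the test leaves room for small changes in single members.

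For 11 members (32.4%), every library of a group lay above every library of the other, against 22.6% of all tested genes. Of these, 7 (20.6% of the members) were higher W/ IL-10 (Hspa5, Dnajc3, Pdia3, Atf6, Edem1, Phgdh and Mthfd2), where 11.3% of tested genes were, and 4 (11.8%) were lower (Xbp1, Atf3, Trib3 and Sesn2), where 11.2% were.

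**Figure D1:**
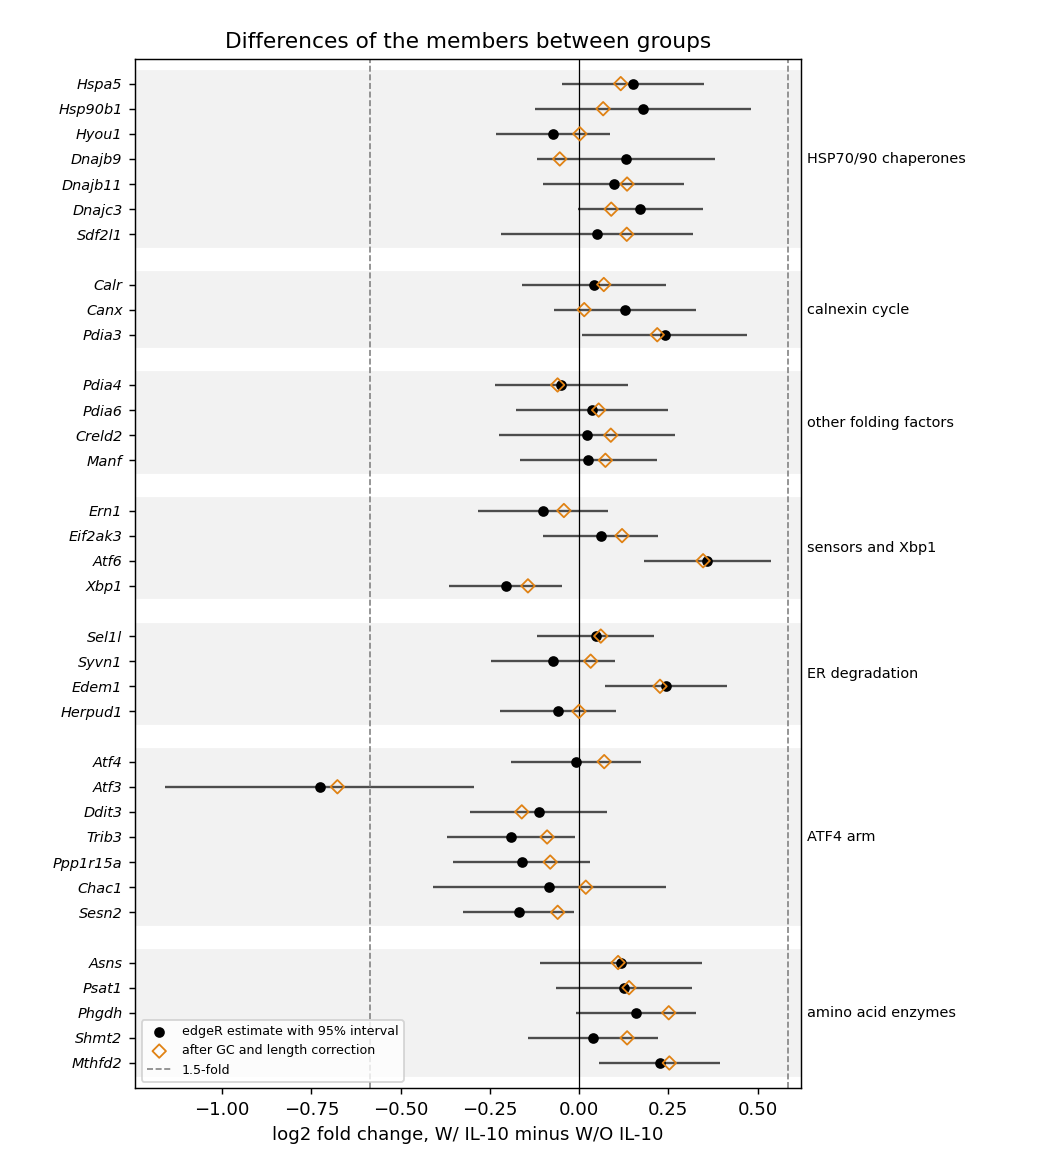
Log2 fold change of each of the 34 members by branch, W/ IL-10 minus W/O IL-10, as black points with 95% intervals (edgeR), with open diamonds for the values corrected for GC content and length and dashed lines at a 1.5-fold change. The points run from -0.73 for Atf3 to 0.36 for Atf6, and only the interval of Atf3 crosses a dashed line.

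In level per kilobase of exon (CPM per kb, mean of the groups), the members spanned more than the differences between the groups. Calr, the calcium-binding lectin calreticulin, was the highest at 302 CPM per kb, above 99.1% of tested genes. It was followed by Pdia3 at 194, Atf4 at 180.4 and Hspa5 at 161 CPM per kb. Pdia3 and Atf4 lay within their spread W/O IL-10 (178 ± 19.8 and 181 ± 5.50, SD) and apart W/ IL-10 (209.5 ± 12.2 and 179.8 ± 11.6, SD). Next came Canx at 84.1, Phgdh at 77.5, Shmt2 at 77.1 and Hsp90b1 at 73.9 CPM per kb, of which the last 3 were also within their spread. So were Canx and Phgdh, W/O IL-10 (80.4 ± 7.27 and 73.2 ± 1.43, SD) and W/ IL-10 (87.9 ± 2.55 and 81.7 ± 5.15, SD). The place of Phgdh is uncertain, because 47.8% of its 50-base stretches occur in other gene models. The lowest were Ern1 at 10.2, Atf6 at 8.84, Chac1 at 8.52 and Atf3 at 2.51 CPM per kb. The median member ranked above 91.5% of tested genes, and Atf3 above 35.8%. Part of the exon bases of Eif2ak3 (8.05%) and Manf (8.85%) lies under opposite-strand gene models, and 3.27% of the 50-base stretches of Ddit3 and 5.5% of those of Dnajb9 occur in other gene models, so that some of their counts are uncertain.

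**Figure D2:**
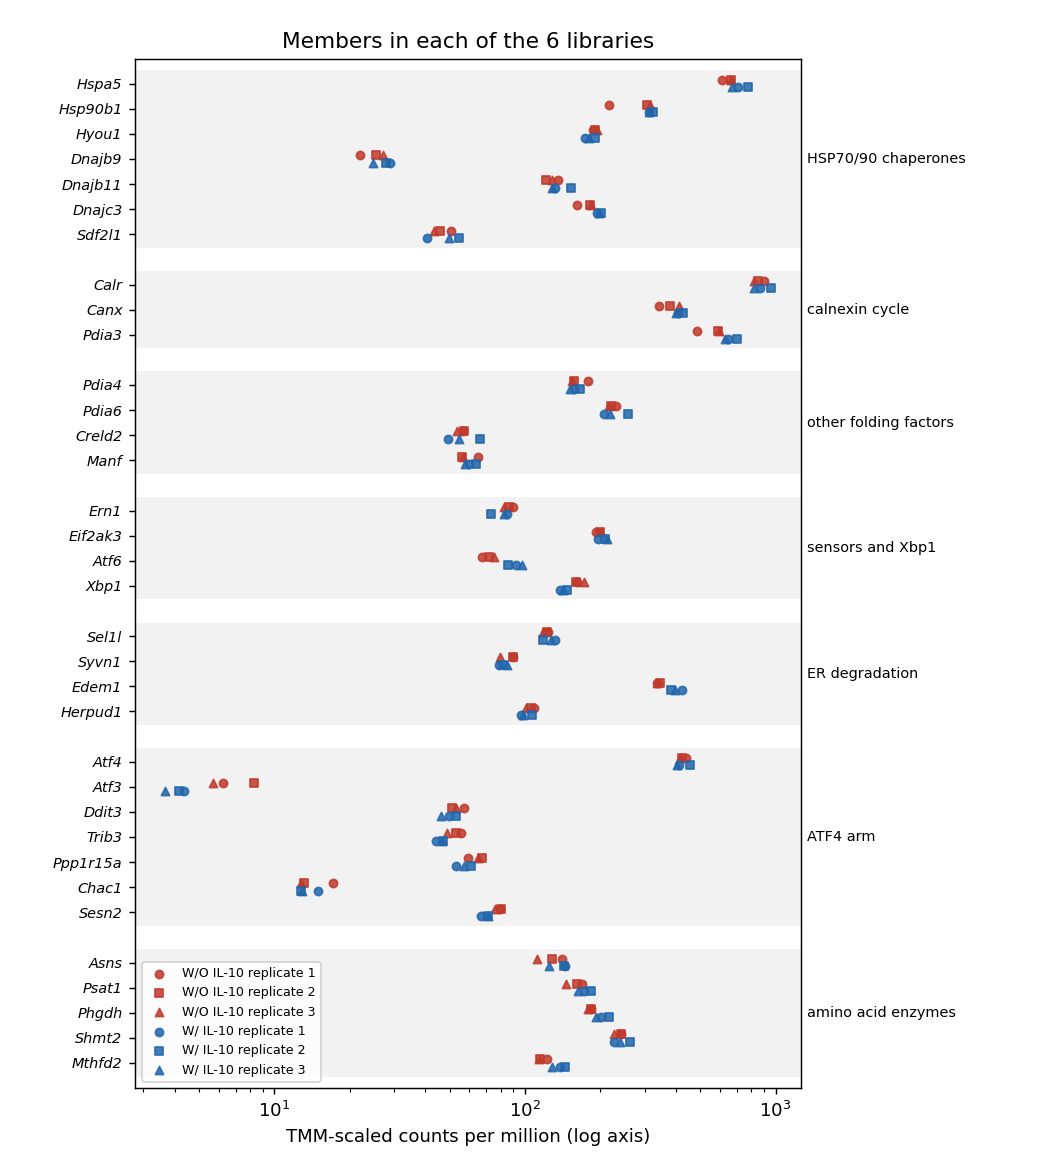
TMM-scaled CPM (log axis, not divided by length) of each member, 1 point per library, with W/O IL-10 in red and W/ IL-10 in blue and the members ordered by branch. The points of a gene lie close together beside the range from Atf3 (3.68 to 8.26 CPM) to Calr (820.0 to 955 CPM), and Hsp90b1 in W/O IL-10 replicate 1 (216 CPM) stands apart from its 5 other points.

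The HSP70 and HSP90 chaperones of the ER and their cofactors had a median log2 fold change of 0.13, with 6 of the 7 above 0 and none past the test. The groups did not overlap for 2 of the 7 (Hspa5 and Dnajc3), against 22.6% of all tested genes. Hspa5, which encodes BiP, the HSP70 of the ER and the chaperone that holds the sensors inactive, had 610.1, 666 and 665 CPM W/O IL-10 and 706, 776 and 673 CPM W/ IL-10, given here and below in the order of replicates 1, 2 and 3. The groups did not overlap, but W/ IL-10 replicate 3 lay close to the upper pair of the other group. The means were 647 ± 31.7 and 718 ± 52.9 CPM (SD, n = 3), with a log2 fold change of 0.15 ± 0.09 (SE, 95% interval -0.05 to 0.35, adjusted p = 0.478, edgeR). Its promoter, of which the 250 bases before the transcription start are shown because Hspa5 is the classical target of the unfolded protein response, holds the ERSE in capitals (chr2:34771840-34772089, + strand, GRCm38.p6).
Hspa5 promoter: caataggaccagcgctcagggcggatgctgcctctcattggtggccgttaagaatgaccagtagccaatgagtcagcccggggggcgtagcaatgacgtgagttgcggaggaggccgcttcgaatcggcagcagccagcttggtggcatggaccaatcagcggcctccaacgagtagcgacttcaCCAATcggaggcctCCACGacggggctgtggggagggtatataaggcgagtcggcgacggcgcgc

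Hsp90b1, the HSP90 of the ER, had 216, 307 and 315 CPM W/O IL-10 and 313, 324 and 311 CPM W/ IL-10. The 5 other libraries lay between 307 and 324 CPM, and W/O IL-10 replicate 1 stood apart below them. The log2 fold change was 0.18 ± 0.13 (SE, adjusted p = 0.585, edgeR), and 0.01 without that library. Opposite-strand gene models cover 10.3% of its exon bases, and the strand setting of the counting is not given in the sources used here. Dnajc3, a cochaperone of BiP that is also known as an inhibitor of PERK, had 161, 182 and 184 CPM W/O IL-10 and 193, 201 and 198 CPM W/ IL-10, with no overlap (log2 fold change 0.17, 95% interval -0.00 to 0.35, adjusted p = 0.353). Dnajb9 (21.9 to 27.2 CPM W/O and 24.8 to 28.9 W/ IL-10), Dnajb11 (122 to 136 and 129 to 152 CPM) and Sdf2l1 (43.3 to 50.7 and 40.5 to 54.6 CPM), further partners of BiP, overlapped between the groups. Hyou1, the exchange factor of BiP, was the 1 member of the branch with a fold change below 0 (-0.07, adjusted p = 0.678, edgeR). After a correction for GC content described below, Hyou1 stood at 0.00 and Dnajb9, which stood at 0.13, at -0.05.

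The 3 genes of the calnexin cycle, which keeps newly made glycoproteins in the ER until they are folded, were all above 0 with a median of 0.13. The median was 0.07 without W/O IL-10 replicate 1, and 2 of the 3 were above 0 without W/ IL-10 replicate 2 or W/O IL-10 replicate 3. Pdia3, the disulfide isomerase that works with both lectins, had 485, 591 and 595 CPM W/O IL-10 and 644, 701 and 629 CPM W/ IL-10. The groups did not overlap, and W/O IL-10 replicate 1 was again the lowest. The means were 557 ± 62.2 and 658 ± 38.2 CPM (SD, n = 3), which is a log2 fold change of 0.24 ± 0.10 (SE, 95% interval 0.01 to 0.47, unadjusted p = 0.0435, adjusted p = 0.318, edgeR), and of 0.14 without W/O IL-10 replicate 1. Canx had 342, 379 and 410.5 CPM W/O IL-10 and 409, 426 and 402 CPM W/ IL-10 (0.13, adjusted p = 0.544). Calr had 896, 853 and 821 CPM W/O IL-10 and 870.0, 955 and 820.0 CPM W/ IL-10, so that the lowest and the highest of its values were both W/ IL-10 (0.04, adjusted p = 0.871).

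The other isomerases and folding factors showed no separation. Pdia4 and Pdia6, disulfide isomerases, had log2 fold changes of -0.05 and 0.04, and the stress-induced factors Creld2 and Manf had 0.02 and 0.03 (adjusted p 0.828 to 0.95, edgeR). For Creld2, the 3 W/O IL-10 libraries at 53.4 to 57.3 CPM lay inside the W/ IL-10 range of 49.5 to 66.1 CPM. The branch median of 0.02 became -0.0750 without W/ IL-10 replicate 2.

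That library was the highest of the 6 for many of the folding genes. Of the 14 genes of the 3 folding branches, 10 had their highest CPM in W/ IL-10 replicate 2, and of all 34 members 15 did, against 14.8% of all tested genes. W/O IL-10 replicate 1 was the lowest for 6 of the 14 and for 9 of the 34, against 25.1% of all tested genes, and W/ IL-10 replicate 1 for 4 of the 14 and for 11 of the 34, against 18.9%. The mean deviation of the HSP70 and HSP90 chaperones from their gene means was -0.13, -0.02 and -0.00 on the log2 scale in the W/O IL-10 libraries and 0.00, 0.14 and 0.01 in the W/ IL-10 libraries. Thus W/O IL-10 replicate 3 was level with W/ IL-10 replicates 1 and 3. The B cell and plasma cell markers of W/ IL-10 replicate 2 summed to 106 and 366 CPM, and those of W/ IL-10 replicates 1 and 3 to 62.7 and 60.4 CPM and to 294 and 298 CPM. W/O IL-10 replicate 3 had sums close to those of W/ IL-10 replicate 2 (106 and 368 CPM) at a chaperone deviation of -0.00, and W/O IL-10 replicate 2 had higher sums (155 and 451 CPM) at -0.02. The part of B cells and plasma cells in the chaperone deviations was not tested.

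**Figure D3:**
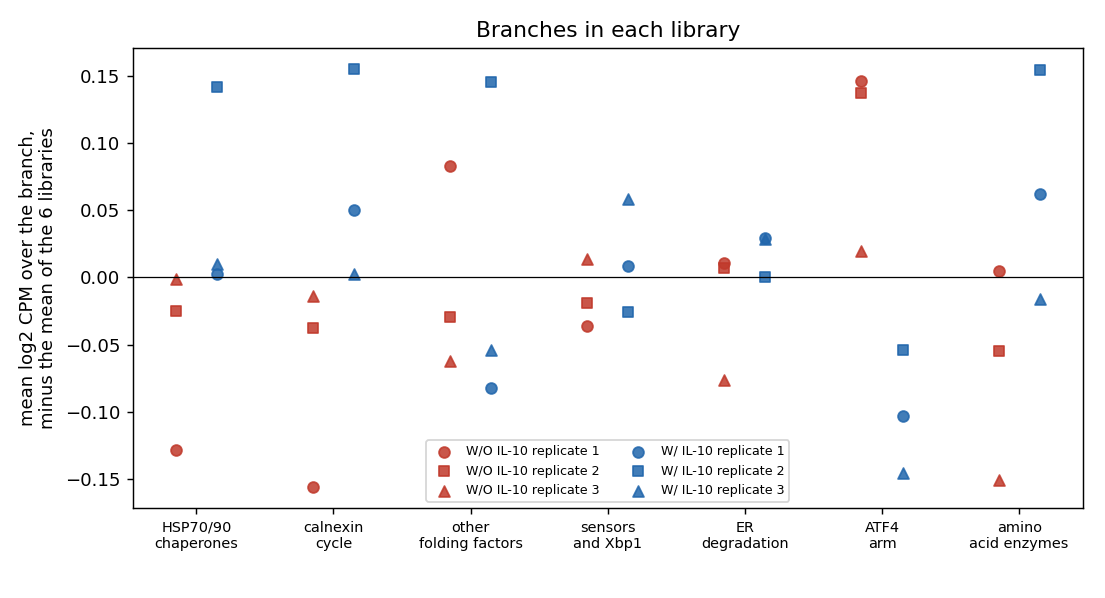
Mean deviation on the log2 scale of the genes of each branch from their mean over the 6 libraries, 1 point per library (red for the group W/O IL-10 and blue for W/ IL-10). In the ATF4 arm the W/O IL-10 libraries (0.02 to 0.15) lie above the W/ IL-10 libraries (-0.15 to -0.05), and W/ IL-10 replicate 2 lies at 0.14 to 0.16 in the 3 folding branches. Each gene counts equally, and Atf3 weighs most in the mean of the ATF4 arm.

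Among the sensors and Xbp1, none of the 4 genes passed the test with edgeR. The groups did not overlap for Atf6 and Xbp1, in opposite directions, against 22.6% of all tested genes, and overlapped for Ern1 and Eif2ak3. Atf6, which encodes the membrane-bound factor that is cut in the Golgi and then activates chaperone genes, had 67.4, 71.6 and 75.4 CPM W/O IL-10 and 92.01, 86.0 and 97.1 CPM W/ IL-10. The groups did not overlap. The means were 71.5 ± 4.05 and 91.7 ± 5.58 CPM (SD, n = 3), which is a log2 fold change of 0.36 ± 0.08 (SE, 95% interval 0.18 to 0.54). The adjusted p was 0.0552 with edgeR, the lowest of the members. It was 0.0183 with DESeq2, 0.0627 with limma-voom and 0.0204 with GC content and length corrected, and it ranged from 0.0126 to 0.242 over the 14 alternatives, in all of which the fold change was above 0.

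Xbp1, whose messenger RNA IRE1 splices to make an active transcription factor, had 161, 160.0 and 172 CPM W/O IL-10 and 138, 147 and 142 CPM W/ IL-10. The groups did not overlap, at means of 164 ± 6.45 and 143 ± 4.52 CPM (SD, n = 3) and a log2 fold change of -0.21 ± 0.07 (SE, 95% interval -0.36 to -0.05, unadjusted p = 0.0162, adjusted p = 0.205, edgeR). Counts per gene do not separate the spliced from the unspliced form. In a comparison chosen after the values were seen, the level of Atf6 per kilobase relative to Xbp1 was 0.147, 0.158 and 0.154 W/O IL-10 and 0.234, 0.205 and 0.241 W/ IL-10. With Atf6 higher and Xbp1 lower in every W/ IL-10 library, this ratio had to separate the groups and is not further evidence. Ern1, the gene of IRE1, had 82.6 to 89.4 CPM W/O IL-10 and 73.0 to 85.1 CPM W/ IL-10 (-0.10, adjusted p = 0.61), and Eif2ak3, the gene of PERK, had 192 to 201 and 195 to 213 CPM (0.06, adjusted p = 0.742).

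Of the 4 genes of ER-associated degradation, which returns misfolded proteins to the cytosol for destruction, Edem1 was the one that separated the groups, as did 22.6% of all tested genes. Edem1, a lectin-like factor that picks out misfolded glycoproteins, had 335, 346 and 337 CPM W/O IL-10 and 425, 383 and 398 CPM W/ IL-10. The W/O IL-10 libraries lay close together and all W/ IL-10 libraries were above them. The means were 339 ± 5.71 and 402 ± 21.3 CPM (SD, n = 3), with a log2 fold change of 0.24 ± 0.08 (SE, 95% interval 0.07 to 0.41, unadjusted p = 0.0108, adjusted p = 0.167, edgeR). The ubiquitin ligase Syvn1 and its partner Sel1l had -0.07 and 0.05 (adjusted p = 0.708 and 0.811). Herpud1, a stress-induced part of the same complex, had 109, 105 and 101 CPM W/O IL-10 and 96.6, 107 and 98.6 CPM W/ IL-10 (-0.06, adjusted p = 0.746). It is shown because its 250 bases before the start (chr8:94386179-94386428, + strand) hold both an ERSE-II and a CARE, in capitals, the CARE on the reverse strand.
Herpud1 promoter: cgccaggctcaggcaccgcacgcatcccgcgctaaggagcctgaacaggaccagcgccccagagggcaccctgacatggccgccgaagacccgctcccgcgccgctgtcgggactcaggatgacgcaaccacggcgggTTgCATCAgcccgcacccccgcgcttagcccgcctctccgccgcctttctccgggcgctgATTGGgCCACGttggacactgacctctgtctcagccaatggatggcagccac

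In the ATF4 arm, all 7 genes had a fold change below 0, with a median of -0.16. None passed the test, 3 had an unadjusted p under 0.05 (Atf3, Trib3 and Sesn2), and the groups of the same 3 did not overlap, against 14.7% and 22.6% of all tested genes. Atf4 itself, whose control is mainly in translation, had 440.4, 425 and 415 CPM W/O IL-10 and 412, 455 and 405 CPM W/ IL-10. The groups overlapped, and the log2 fold change was -0.01 (95% interval -0.19 to 0.17, adjusted p = 0.977, edgeR). Averaged over the arm, the deviation from the gene means was 0.15, 0.14 and 0.02 on the log2 scale in the W/O IL-10 libraries and -0.10, -0.05 and -0.15 in the W/ IL-10 libraries. Each gene counts equally in this mean, and Atf3 weighs most in it. Its log2 fold change was -0.73, and those of the other genes of the arm were -0.19 to -0.01. The mean without Atf3 was not computed.

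Atf3, a stress-induced repressor and the least abundant of the members, had the largest difference. It had 6.24, 8.26 and 5.68 CPM W/O IL-10 and 4.37, 4.17 and 3.68 CPM W/ IL-10, from 84 to 200 counts a library. The groups did not overlap, and W/O IL-10 replicate 2 was the highest. The means were 6.73 ± 1.36 and 4.07 ± 0.356 CPM (SD, n = 3), with a log2 fold change of -0.73 ± 0.19 (SE, 95% interval -1.16 to -0.29, adjusted p = 0.105, edgeR). The adjusted p was 0.034 with DESeq2 and 0.125 with limma-voom, with a range of 0.0237 to 0.356 over the 14 alternatives, and the fold change was -0.56 without W/O IL-10 replicate 2. That library also had the highest sums of B cell, plasma cell and dendritic cell markers (155, 451 and 340 CPM), and the part of those cells in the Atf3 value was not tested. The 250 bases before its start (chr1:191183334-191183583, - strand) hold a CARE on the reverse strand.
Atf3 promoter: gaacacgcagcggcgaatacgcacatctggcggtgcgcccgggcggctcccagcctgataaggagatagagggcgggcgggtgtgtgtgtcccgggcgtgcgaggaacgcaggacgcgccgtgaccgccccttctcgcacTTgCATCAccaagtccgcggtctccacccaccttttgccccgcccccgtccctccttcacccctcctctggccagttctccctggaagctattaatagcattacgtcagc

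The other effectors of the arm differed less. Trib3, a pseudokinase that restrains AKT signaling and ATF4 activity, had 55.4, 53.1 and 48.9 CPM W/O IL-10 and 44.4, 47.1 and 46.6 CPM W/ IL-10 (-0.19, 95% interval -0.37 to -0.01, adjusted p = 0.307). Sesn2, a sestrin that senses leucine and restrains mTORC1, had 79.4, 80.0 and 76.0 CPM W/O IL-10 and 66.7, 71.2 and 71.3 CPM W/ IL-10 (-0.17, 95% interval -0.32 to -0.01, adjusted p = 0.289). Neither gene overlapped between the groups. Ppp1r15a, the GADD34 subunit that guides dephosphorylation of eIF2α, had 59.4, 67.4 and 64.7 CPM W/O IL-10 and 52.8, 61.2 and 57.2 CPM W/ IL-10 (-0.16, adjusted p = 0.427). Ddit3, the gene of the proapoptotic factor CHOP, had -0.11 (adjusted p = 0.582), and Chac1, which degrades glutathione, had -0.08 (adjusted p = 0.836), both with overlapping groups.

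The 5 enzymes that ATF4 is known to induce stood above 0, with a median of 0.13. Without W/O IL-10 replicate 3 the median was 0.05 with 4 of the 5 above 0, and with each other library left out it lay between 0.09 and 0.18. Mthfd2, a mitochondrial enzyme of the folate cycle, had 123, 115 and 114 CPM W/O IL-10 and 138, 145 and 129 CPM W/ IL-10. The groups did not overlap, at means of 117 ± 4.82 and 137 ± 8.04 CPM (SD, n = 3), and the log2 fold change was 0.23 ± 0.07 (SE, 95% interval 0.06 to 0.40, unadjusted p = 0.0145, adjusted p = 0.194, edgeR). Phgdh, the first enzyme of serine synthesis, had 184, 184 and 178 CPM W/O IL-10 and 200.3, 217 and 192 CPM W/ IL-10 (0.16, adjusted p = 0.37). Of the 50-base stretches of Phgdh, 47.8% also occur in pseudogenes, so that its counts are uncertain. Psat1, the next enzyme of that pathway, had 145 to 169 CPM W/O IL-10 and 162 to 183 CPM W/ IL-10 (0.13, adjusted p = 0.54), and Shmt2, which passes the carbon of serine to folate, had 227 to 241 and 227 to 262 CPM (0.04, adjusted p = 0.862).

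Asns, asparagine synthetase, had 139.9, 128 and 112 CPM W/O IL-10 and 145, 143 and 125 CPM W/ IL-10, overlapping between the groups (0.12, 95% interval -0.11 to 0.34, adjusted p = 0.631, edgeR). Without W/O IL-10 replicate 3 its log2 fold change was 0.02. Its CARE lies 23 bases before the start, within the 250 bases shown (chr6:7693210-7693459, - strand).
Asns promoter: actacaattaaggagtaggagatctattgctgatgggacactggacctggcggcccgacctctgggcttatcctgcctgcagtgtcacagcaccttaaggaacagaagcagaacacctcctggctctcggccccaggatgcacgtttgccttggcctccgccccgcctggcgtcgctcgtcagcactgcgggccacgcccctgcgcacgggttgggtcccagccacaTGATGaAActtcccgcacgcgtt
The enzymes and the arm that share ATF4 as a known inducer thus stood on opposite sides of 0 (5 of 5 above, 7 of 7 below, with Atf4 at -0.01). With the GC and length correction, or without W/O IL-10 replicate 1, 2 of the 7 were above 0. In the further lists below, 5 of the 10 other ATF4-arm genes and 10 of the 17 other amino acid, one-carbon and transport genes were above 0. The branches were drawn with earlier results of these data known, and the difference between them was not tested.

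Grouped by the promoter sequences shown above, the 8 members with an ERSE had log2 fold changes of -0.07 to 0.18 with a median of 0.09. In all 18 tested genes with an ERSE, 0 were called by edgeR and by limma-voom and 1 by DESeq2 (Tdrd9), and 4 had an unadjusted p under 0.05 with edgeR (14.7% of all tested genes). None of these is a member. The 5 members with a CARE had a median of -0.08, from -0.73 for Atf3 to 0.12 for Asns. None of the 5 was called by edgeR, against 4.96% of the 242 tested genes with a CARE, while DESeq2 called Atf3.

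The fold changes of the members also moved with the GC content of the genes, as they did over all genes. Over all tested genes the median log2 fold change was 0.24 for the 1014 genes of up to 40% GC, 0.11 from 40 to 45%, 0.01 from 45 to 50%, -0.04 from 50 to 55%, -0.08 from 55 to 60% and -0.13 for the 543 genes above 60%. Of the members, 4 of 4 were above 0 at 40 to 45% GC, 10 of 12 at 45 to 50%, 4 of 9 at 50 to 55% and 3 of 9 at 55 to 60%. The median GC content was 45.6% for the HSP70 and HSP90 chaperones and 55.7% for the ATF4 arm.

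Correcting for GC content and length changed the branches as follows. The median became 0.09 for the HSP70 and HSP90 chaperones and 0.07 for the calnexin cycle. It became -0.08 for the ATF4 arm, with Atf4 and Chac1 above 0, at 0.07 and 0.02. It became 0.14 for the amino acid enzymes, all 5 of which stayed above 0. Atf6 had a corrected log2 fold change of 0.35 and was the 1 member to pass the test (adjusted p = 0.0204, edgeR). Next by adjusted p came Mthfd2 at 0.25 (adjusted p = 0.0601) and Phgdh at 0.25 (adjusted p = 0.0676). Atf3 had -0.68 (adjusted p = 0.0925), Edem1 0.23 (adjusted p = 0.104) and Xbp1 -0.14 (adjusted p = 0.37). All 7 genes of the ATF4 arm lay below 0 under each scaling of the libraries tried. With 1 library left out, 1 gene of the arm was above 0 without W/ IL-10 replicate 1 or 3, and 2 without W/O IL-10 replicate 1.

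**Figure D4:**
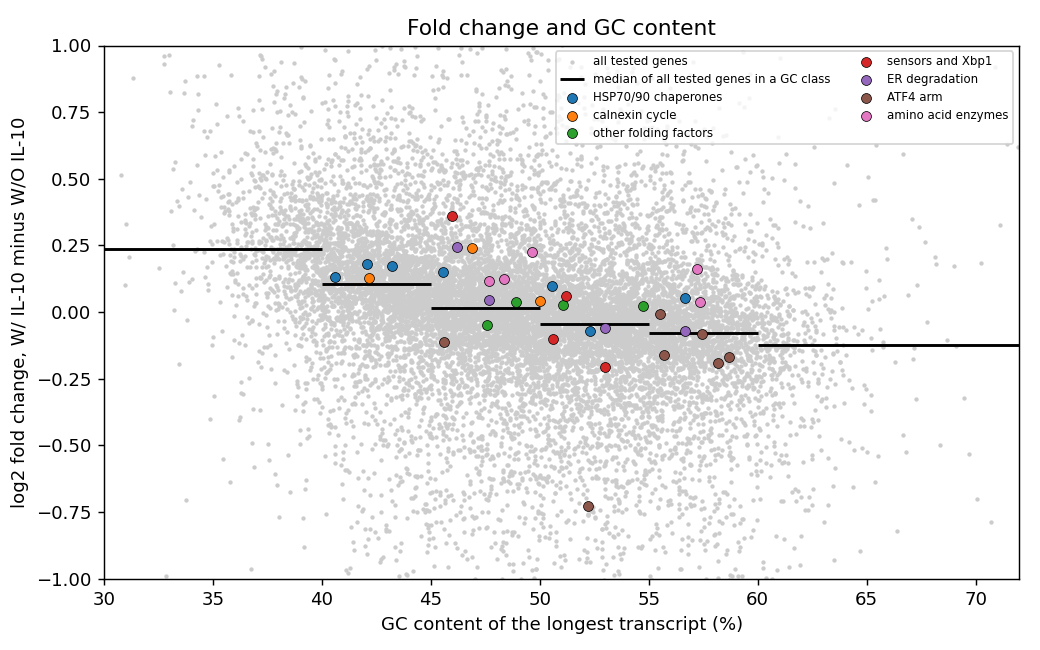
Log2 fold change, W/ IL-10 minus W/O IL-10, against the GC content of the longest transcript (percent), with tested genes in grey, members coloured by branch and black lines at the median of all tested genes in each GC class. The axes leave out the 378 genes beyond a log2 fold change of 1 in either direction and genes of extreme GC content, and the black lines step down from 0.24 to -0.13.

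Other genes of the same pathways were read from 9 further lists. Of their 132 genes found in the table, 129 were tested. Of these, 0 were called by edgeR and by limma-voom and 2 by DESeq2 (Pdia5 and Sesn3), and edgeR with the GC and length correction called 1 (Sesn3), while 13 had an unadjusted p under 0.05 with edgeR, 15 were higher and 12 lower W/ IL-10 without overlap (14.7%, 11.3% and 11.2% of all tested genes), and the median log2 fold change was 0.02. The lowest adjusted p was that of Sesn3, a sestrin like Sesn2, with 220.4, 245 and 273 CPM W/O IL-10 and 387, 306 and 376 CPM W/ IL-10 (log2 fold change 0.53 ± 0.11 SE, adjusted p = 0.0548). Sesn3 thus lay on the side opposite to Sesn2. In the list of other ATF4-arm genes, 5 of the 10 tested were above 0, and Vldlr was the lowest (-0.54, adjusted p = 0.395).

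Of the 22 other ER folding genes tested, 14 were above 0, from -0.63 for the isomerase Pdia5 (adjusted p = 0.113) to 0.36 for Erp44, which retains client proteins in the early secretory pathway (adjusted p = 0.174). Pdia5 had 11.5, 11.9 and 11.2 CPM W/O IL-10 and 6.07, 9.40 and 6.87 CPM W/ IL-10. Erp44 had 84.5, 114 and 112 CPM W/O IL-10 and 137, 136 and 125 CPM W/ IL-10. Of the 17 other degradation genes 8 were above 0, from -0.12 for Vcp to 0.24 for Edem3, a relative of Edem1 (68.5 to 86.0 CPM W/O and 86.7 to 97.0 CPM W/ IL-10, adjusted p = 0.295). Of the 17 genes of the translocon and signal peptide processing 13 were above 0, with Spcs3 the highest (0.26) and Srprb the lowest (-0.07).

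Of the 16 other sensors, kinases and initiation factors 8 were above 0, from -0.24 for Eif2b4, a subunit of the exchange factor that phosphorylated eIF2α inhibits (adjusted p = 0.154), to 0.25 for Eif2ak2, the kinase that senses viral RNA (adjusted p = 0.426). Of the 17 other amino acid, one-carbon and transport genes 10 were above 0, from -0.20 for the arginine transporter Slc7a1 to 0.22 for Psph, the last enzyme of serine synthesis. Of the 12 aminoacyl-tRNA synthetases 9 were above 0, from -0.02 for Wars to 0.14 for Gars.

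Outside the ER, 1 of the 7 mitochondrial chaperones and proteases was above 0, from -0.18 for the protease subunit Clpp to 0.13 for the chaperonin Hspd1. Of the 11 cytosolic heat shock genes 6 were above 0, with the extremes at the low-expressed Hspa1a (-0.97, 0.306 to 1.81 CPM) and Hspb1 (0.34, 0.245 to 0.534 CPM). Of the 50-base stretches of Hspd1, Hspa1a, Hspb1 and Vcp, 39.7%, 60.4%, 48.8% and 40.5% occur in other gene models, and their counts are uncertain.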

How the data were processed

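RNA of 6 cDNT libraries, 3 libraries W/O IL-10 and 3 libraries W/ IL-10, was sequenced, and the groups were taken from the sample labels. The authors deposited 1 table of whole-number counts per Ensembl gene, not normalized. The submitters' processing notes name HISAT2, HTSeq and GRCm38, whereas the methods of the study name TopHat, Cufflinks and UCSC annotation. Versions and the strand setting are not given in the sources used here. Symbols, exon lengths and GC content came from GENCODE M21 (GRCm38), in which 29332 of 29393 identifiers were found.

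The deposited counts were scaled by TMM factors (0.953 to 1.03) in edgeR 4.0.16 under R 4.3.3, and CPM used the scaled totals. A gene was tested where 3 or more libraries reached 10 counts, which left 14916 genes for the quasi-likelihood test, with Benjamini-Hochberg adjustment over all of them. The standard error is the log2 fold change divided by the square root of F, and intervals are at 95%. CPM per kb divides by the exon length of all transcripts joined, in units of 1000 bases. The floor was 3 counts per library. Every result for a member comes from this fit, and branches are described by counts and medians.

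Alternatives were DESeq2 1.42.0, limma-voom (limma 3.58.1), upper-quartile scaling, all genes unfiltered, a minimum of 10 counts in all 6 libraries, the replicate number as a block, offsets for GC content and length (splines with 5 degrees of freedom per library, 99.9% of tested genes having both values) alone or with the block, and the omission of each library in turn. The fit was checked on simulated counts with 200 changed genes. With 1.5-fold changes, 6% of calls were false (14989 genes), and with 2-fold changes 2.23% (14964 genes).

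The members, branches and further lists were chosen with earlier results of these data known. All members could be named. From the further lists, genes with an adjusted p under 0.05 and the largest fold change in each direction were named. From the marker lists, the defining markers were named, with Cd5, further dendritic and plasma cell markers and the 5 IL-10 response genes beside them. Fkbp14, Gdf15 and Cbs were too low to be tested. Promoter sequences came from RefSeq (GRCm38.p6), the first window of each gene being used. Python 3.11.15, pandas 2.3.3 and matplotlib 3.10.9 handled tables and plots.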

Additional observations from a re-analysis of the deposited data

How the results depend on the processing

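Under the 14 alternatives, 22 of the 34 members kept the sign of their fold change in all, and 32 passed the threshold in none. Atf6 passed with DESeq2, without the filter on low counts and with the GC and length correction with or without the replicate block. Atf3 passed with DESeq2 and without the filter. The count of members called was thus 2, 2, 1 and 1 in these 4 settings, and 1 (Atf3) at a fold change of at least 1.5 with DESeq2 or without the filter. It was 0 in all others, including every fit with a library left out. Over all genes, the 327 calls became 696 with DESeq2, 1239 without the filter, 514 with the GC and length correction, 835 with that correction and the replicate block, and 35 to 525 with a library left out. The 217 calls at a fold change of at least 1.5 became 359, 639 and, with the correction and the block, 331, and 35 to 254 with a library left out. The replicate numbers are shared between the groups by label only. Same-numbered libraries correlated at 0.0524, -0.0573 and 0.114 in their deviations, and the replicate block alone gave 283 calls and 0 members. The cause of these shifts was not tested.

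With the GC and length correction, without and with the replicate block, the sensors had a median of 0.0388 and 0.0380 in place of -0.0203, and the degradation genes 0.0465 and 0.0468 in place of -0.0067. The ATF4 arm had -0.0810 and -0.0788 in place of -0.1613. In those fits 5 members changed sign, none past the threshold: Hyou1 (0.0020 and 0.0018), Dnajb9 (-0.0542 and -0.0536), Syvn1 (0.0324 and 0.0331), Atf4 (0.0703 and 0.0700) and Chac1 (0.0187 and 0.0195). With a library left out, the members without overlap numbered 11 to 17 (17 without W/ IL-10 replicate 2). The share over all tested genes was not counted in these fits, and smaller groups overlap less often by construction. The median then ranged from -0.0750 to 0.0666 for the other isomerases and folding factors, from -0.0449 to 0.0066 for the sensors and from -0.0449 to 0.0093 for the degradation genes. Single fold changes that crossed 0 ranged from -0.0489 to 0.1616 (Sdf2l1), -0.0205 to 0.0909 (Calr), -0.1010 to 0.0090 (Pdia4), -0.0633 to 0.1014 (Pdia6), -0.1048 to 0.1103 (Creld2), -0.0191 to 0.0860 (Manf), -0.0636 to 0.0229 (Atf4), -0.1751 to 0.0550 (Chac1) and -0.0202 to 0.0864 (Shmt2), all short of the threshold.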
